A study of Caenorhabditis elegans with 9 samples.

Results

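A list of 10 genes that guard the mitochondrion of *Caenorhabditis elegans*, chosen by name, was followed through sodium arsenite exposure, and 9 of the 10 were measured. The list holds the regulators *atfs-1*, *dve-1* and *ubl-5*, the proteases *clpp-1*, *lonp-1* and *spg-7*, the prohibitins *phb-1* and *phb-2*, and the mitophagy genes *pink-1* and *dct-1*. The 9 measured genes had 12 probesets among the 20766 that are assigned to 1 gene, which represent 17118 genes. No probeset is assigned to *pink-1* alone, and the gene was not analysed here.

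The 3 groups were wild type N2 worms with 3 arrays each: unexposed controls, worms given 0.003% w/v sodium arsenite (low dose) and worms given 0.03% w/v (high dose). Exposed worms spent 6 h at 22 °C in CeHM, a liquid growth medium, and whole-worm RNA was hybridized to Affymetrix *C. elegans* arrays. The sources differ on the larval stage, with L3 in the labels, L1 in the methods and L4 in the results. The arrays of a group are labelled as biological replicates from separate RNA extractions, but separate cultures are not stated, so the p-values measure only the spread between these samples.

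Mitochondria answer damage to their proteins with the mitochondrial unfolded protein response, or UPRmt, a nuclear transcription program that raises mitochondrial chaperones and proteases. In worms the transcription factor ATFS-1 is normally imported into mitochondria and degraded there, and it enters the nucleus when import falters. Proteases of the matrix and inner membrane remove damaged proteins inside the organelle, and mitophagy delivers whole damaged mitochondria to the lysosome. RNA levels do not report the import or nuclear entry of a protein.

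Upon high dose exposure *dct-1* was up regulated 4.30 fold and *atfs-1* 1.97 fold, while both prohibitin genes were down regulated, *phb-2* 1.32 fold and *phb-1* 1.26 fold. The 3 proteases and the other regulators did not pass the test on the probesets used. Calls were made with limma, a linear model with a moderated variance. They required an adjusted p no higher than 0.05, by Benjamini and Hochberg's method over all 17118 genes, together with a difference of 1.2 fold or more. By this rule 4 of the 9 measured genes were called at the high dose, 2 up and 2 down, where 19.97% of all genes were called (8.996% up and 10.97% down). All 9 belong to the brighter 50% of genes. With the dimmer 50% left out, 5 of the 9 were called, where 3839 of 8559 genes were, so the count is no result about the members. The arrays of 8 of the 9 genes did not overlap between high dose and control, against 38.4% of all genes, dim ones included. The median log2 fold change of the 9 genes was -0.03, and that of all genes was -0.05. Their median absolute log2 change was 0.33, against 0.40 over all genes. At the low dose, where few genes were called, these medians were 0.06 and 0.23.

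At the low dose none of the 9 genes was called by limma, where 1.55% of all genes were. Only *ubl-5* had an unadjusted p below 0.05, and only *ubl-5* had arrays that did not overlap the controls, against 18.2% of all genes. Between the doses, 3 of the 9 genes were called, 2 higher and 1 lower at the high dose, where 16.8% of all genes were called (7.34% higher and 9.49% lower). Without the dimmer 50% of genes, 4 of the 9 were called between the doses, where 3334 of 8559 genes were. The arrays of 6 of the 9 genes did not overlap between the doses, against 34.01% of all genes.

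**Figure D1:**
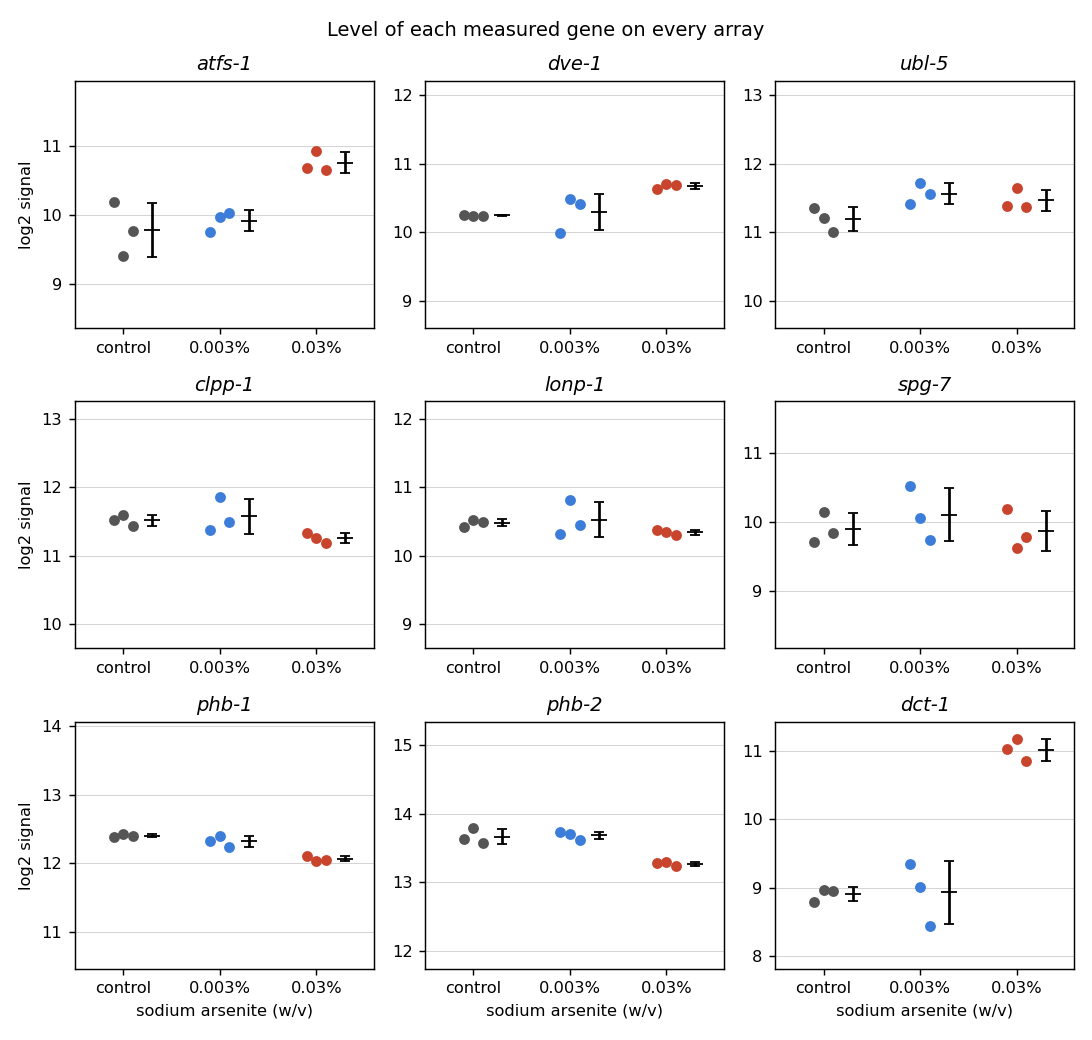
Log2 signal of each of the 9 measured genes on every array (vertical axes, 1 panel per gene, each spanning the same number of log2 units) in control, 0.003% and 0.03% sodium arsenite. Points are arrays, and the bars beside them are the mean and SD of 3 arrays; *dct-1* stands between 10.85 and 11.17 at the high dose, above its 6 other arrays, and *phb-1* and *phb-2* lie below theirs.

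**Figure D2:**
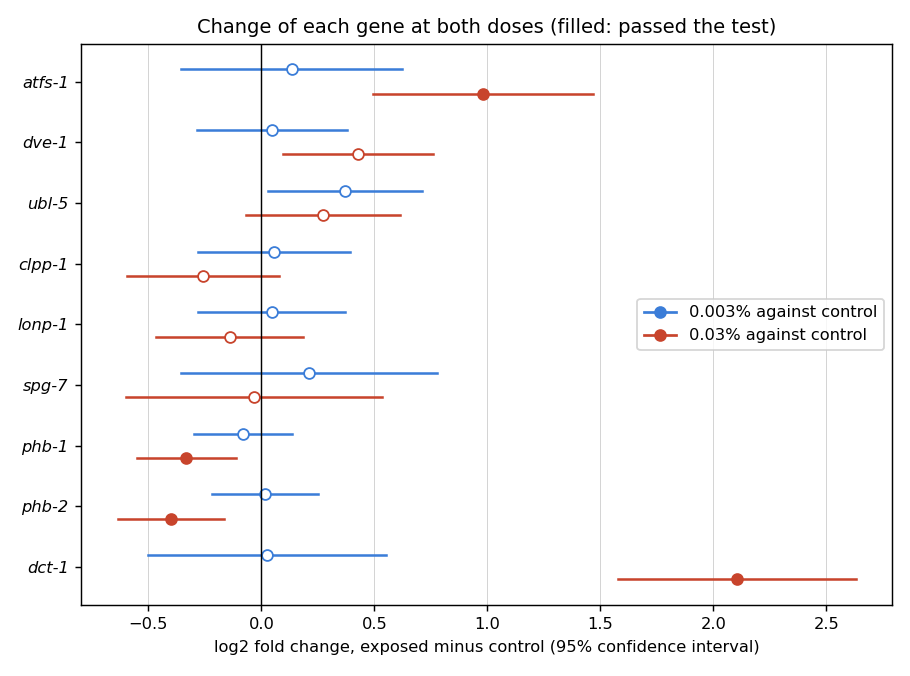
Log2 fold change of each gene against control (horizontal axis) at 0.003% and 0.03%, with the 95% confidence interval of the limma fit. Filled points passed the test: *atfs-1* (0.98) and *dct-1* (2.10) above 0, *phb-1* (-0.33) and *phb-2* (-0.40) below it, all at the high dose.

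All values are the deposited log2 signals of a probeset, so that 1 unit is a doubling, and levels are not compared between genes. Among the regulators, *atfs-1*, which encodes the bZIP factor of the UPRmt, had 10.18, 9.40 and 9.76 on the control arrays, 9.75, 9.96 and 10.03 at the low dose, and 10.69, 10.94 and 10.66 at the high dose. The high dose arrays were all above the other 6, and the low dose arrays lay within the control range. *atfs-1* was higher at the high dose than in controls by 0.98 log2 units (SE 0.21, limma adjusted p = 0.0147), a change that ranked 1742 among the 17118 genes ordered by rise. It was also higher than at the low dose by 0.85 (SE 0.21, adjusted p = 0.0310). The low dose differed from control by 0.13 (adjusted p = 0.866). The high dose call against control ended without high dose replicate 2 (adjusted p = 0.0528), and the call between doses ended without any 1 of the 3 low dose arrays, any 1 of the 3 high dose arrays or control replicate 3 (adjusted p = 0.0529 to 0.0997).

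*dve-1* encodes a homeodomain protein that gathers in nuclei and binds chromatin during the UPRmt. It had 10.25, 10.24 and 10.24 in controls, 9.99, 10.49 and 10.41 at the low dose, and 10.63, 10.70 and 10.69 at the high dose. The high dose arrays lay above all others, and the low dose arrays fell on both sides of the controls. The difference of 0.43 between high dose and control (SE 0.14) had an adjusted p of 0.0771 in limma and was not called. In 7 of 21 alternative settings it was called, among them leaving out the dimmest 25% of genes (adjusted p = 0.0445). The low dose differed from control by 0.05 (adjusted p = 0.933) and the high from the low dose by 0.38 (adjusted p = 0.124).

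A dimmer second probeset of *dve-1* had 8.47, 8.34 and 8.74 in controls, 7.20, 8.71 and 8.31 at the low dose, and 8.86, 9.06 and 9.41 at the high dose. It was also highest at the high dose, without overlap, but low dose replicate 1 stood far below its group. Fitted among all 20766 probesets it differed from control by 0.60 at the high dose (SE 0.37, adjusted p = 0.335) and by -0.44 at the low dose (adjusted p = 0.746). The probesets of *dve-1* thus differed in sign at the low dose, and neither difference was called.

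*ubl-5* encodes a ubiquitin-like protein that works with DVE-1. It had 11.35, 11.20 and 11.01 in controls, 11.41, 11.72 and 11.55 at the low dose, and 11.37, 11.64 and 11.37 at the high dose. Both exposed groups lay above every control array, and the 2 doses overlapped one another. The difference from control was 0.37 at the low dose (SE 0.15, adjusted p = 0.380) and 0.27 at the high dose (SE 0.15, adjusted p = 0.256), neither of which was called. The high dose differed from the low dose by -0.10 (adjusted p = 0.725). The probeset of *ubl-5* is of the x_at type, whose probes may bind other transcripts as well.

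Among the proteases, *clpp-1* encodes the proteolytic subunit of the matrix protease ClpP, which is required for UPRmt signalling in worms. Its brighter probeset had 11.52, 11.60 and 11.43 in controls, 11.38, 11.85 and 11.49 at the low dose, and 11.33, 11.26 and 11.18 at the high dose. The high dose arrays were below all others, by a small step. The difference from control was -0.26 at the high dose (SE 0.14, adjusted p = 0.274), and that of the low dose was 0.06 (adjusted p = 0.926). The high dose differed from the low dose by -0.31 (adjusted p = 0.202).

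The second probeset of *clpp-1* moved further. It had 11.32, 11.32 and 10.90 in controls, 10.97, 11.37 and 11.23 at the low dose, and 10.63, 10.67 and 10.45 at the high dose, again with the high dose arrays below all others. In the limma fit of all probesets it was called down regulated at the high dose, by -0.59 against control (SE 0.17, adjusted p = 0.0433) and by -0.60 against the low dose (SE 0.17, adjusted p = 0.0463). The low dose differed from control by 0.01 (adjusted p = 0.989). Of the 12 probesets fitted in this way, 2 were called up and 3 down at the high dose against control, where 9.07% and 10.4% of all probesets were. Between the doses 2 were called higher and 2 lower, where 7.54% and 9.04% of all probesets were. The 2 probesets of *clpp-1* therefore agree in sign and differ in the call. The gene *mdt-22*, which encodes a Mediator subunit and overlaps *clpp-1* in the annotation, differed by -0.07 (adjusted p = 0.804) on its own probeset.

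*lonp-1* encodes the matrix protease Lon, which degrades ATFS-1 in healthy mitochondria. It had 10.42, 10.52 and 10.50 in controls, 10.32, 10.81 and 10.45 at the low dose, and 10.37, 10.35 and 10.30 at the high dose. The high dose arrays were below every control array but overlapped the low dose. The difference from control was -0.14 at the high dose (SE 0.14, 95% confidence interval -0.46 to 0.19, adjusted p = 0.569), and that of the low dose was 0.05 (adjusted p = 0.935). The second probeset differed by -0.18 (SE 0.17, adjusted p = 0.529) and 0.11 (adjusted p = 0.870), with overlapping arrays. Neither *lonp-1* probeset was called in any comparison.

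*spg-7* encodes paraplegin, an AAA protease of the inner membrane whose knockdown is a common way to set off the UPRmt in worms. It had 9.70, 10.15 and 9.84 in controls, 10.52, 10.06 and 9.75 at the low dose, and 10.19, 9.63 and 9.79 at the high dose. The 3 groups overlapped throughout, and it was the only measured gene whose high dose arrays overlapped the controls. The difference from control was -0.03 at the high dose (SE 0.24, 95% confidence interval -0.60 to 0.53, adjusted p = 0.951), and that of the low dose was 0.21 (adjusted p = 0.807). The high dose interval leaves room for changes of the size called in the prohibitins.

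**Figure D3:**
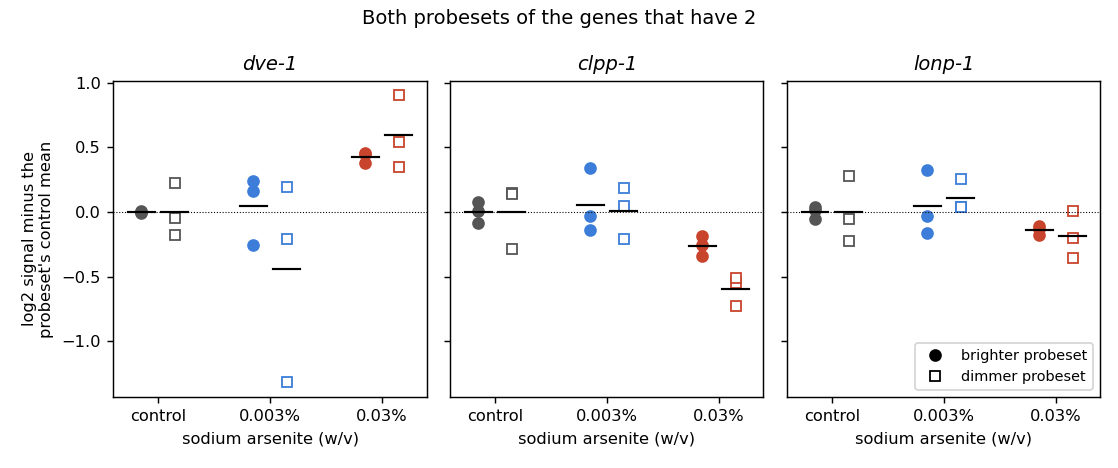
Both probesets of *dve-1*, *clpp-1* and *lonp-1* as log2 signal minus the probeset's own control mean (vertical axis) in control, 0.003% and 0.03% sodium arsenite. Filled circles are arrays on the brighter probeset, open squares on the dimmer one and bars the mean of 3 arrays; at the high dose the mean of the dimmer *clpp-1* probeset is at -0.59 and that of the brighter one at -0.26.

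The prohibitins PHB-1 and PHB-2 form a ring-shaped complex in the inner membrane that holds newly made membrane proteins and, in yeast, binds an AAA protease of that membrane. *phb-1* had 12.38, 12.42 and 12.40 in controls, 12.33, 12.39 and 12.24 at the low dose, and 12.11, 12.04 and 12.05 at the high dose. *phb-2* had 13.64, 13.79 and 13.58 in controls, 13.73, 13.70 and 13.62 at the low dose, and 13.28, 13.29 and 13.24 at the high dose. For both subunits the high dose arrays were below all 6 other arrays and the low dose overlapped the controls.

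*phb-1* was down regulated at the high dose against control by -0.33 log2 units (SE 0.093, limma adjusted p = 0.0437) and *phb-2* by -0.40 (SE 0.10, adjusted p = 0.0295). Against the low dose, *phb-2* was lower by -0.41 (SE 0.10, adjusted p = 0.0293), while the difference of *phb-1*, -0.25 (SE 0.093, adjusted p = 0.120), was not called. At the low dose *phb-1* differed from control by -0.08 (adjusted p = 0.811) and *phb-2* by 0.02 (adjusted p = 0.971). The adjusted p of *phb-1* was near the threshold: its call ended without any 1 of the 9 arrays (adjusted p = 0.0516 to 0.121). That of *phb-2* against control ended without any 1 of the 3 high dose arrays, control replicate 1 or control replicate 2 (adjusted p = 0.0716 to 0.0982), and against the low dose it ended without any 1 of the 6 exposed arrays or control replicate 1 (adjusted p = 0.0533 to 0.0809). The values behind these calls moved little, from -0.35 to -0.32 for *phb-1* and from -0.44 to -0.34 for *phb-2* against control. A gene that overlaps *phb-2* in the annotation, *dbd-5*, differed by 0.00 (adjusted p = 0.995).

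*dct-1*, the worm homologue of mammalian BNIP3 and NIX, encodes an outer membrane receptor that links mitochondria to the autophagy machinery and acts with PINK-1 in mitophagy. It had 8.80, 8.97 and 8.96 in controls, 9.35, 9.01 and 8.45 at the low dose, and 11.02, 11.17 and 10.85 at the high dose. The low dose arrays spread to both sides of the controls, and the high dose arrays were far above both groups. *dct-1* was higher at the high dose than in controls by 2.10 log2 units (SE 0.23, 95% confidence interval 1.58 to 2.63, limma adjusted p = 0.000608), the largest change among the 9 measured genes, and ranked 360 of 17118 by rise. Against the low dose the difference was 2.08 (SE 0.23, adjusted p = 0.000929), rank 268. The low dose differed from control by 0.03 (SE 0.23, 95% confidence interval -0.50 to 0.55, adjusted p = 0.979). The high dose call held in each of the 21 alternative settings.

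The annotation places *sfxn-2*, a sideroflexin gene, over part of *dct-1*. On its own probeset *sfxn-2* averaged 8.42 ± 0.30 at the high dose and 9.45 ± 0.19 in controls (SD, n = 3 each), a difference of -1.03 (SE 0.18, limma adjusted p = 0.00673), so that the overlapping genes moved in opposite directions. The probesets of *atfs-1*, *phb-2* and *dct-1* and the brighter ones of *clpp-1* and *lonp-1* are of the s_at type, which can match several transcripts of a gene or of related genes.

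The other genes of these pathways were counted in lists, described by their counts and medians, beside a median of -0.05 and calls of 8.996% up and 10.97% down over all genes. A list's share near these figures is no result about the list. These shares include dim genes. With the dimmer 50% left out, 3839 of 8559 genes were called in either direction at the high dose. At the high dose the mitochondrial chaperones were called in both directions, 2 up and 2 down of 7 measured, with a median log2 fold change of -0.29. *hsp-6*, the mitochondrial Hsp70 whose promoter is the standard UPRmt reporter, averaged 14.04 ± 0.04 at the high dose and 13.13 ± 0.07 in controls, a difference of 0.92 (SE 0.10, limma adjusted p = 0.000748), and of 1.90 with the mean of its probesets. The probesets of *hsp-6* thus differed in the size of the change, and 0.92 is the value of the brightest. *hsp-60*, the matrix chaperonin, averaged 11.48 ± 0.13 at the high dose and 11.73 ± 0.07 in controls and was not called (-0.25, adjusted p = 0.221). The 2 classical UPRmt reporter genes thus differed in sign, and only *hsp-6* passed. *D2030.2*, which resembles the ClpX partner of ClpP, was called up (0.63, adjusted p = 0.0256), while *dnj-21* (-0.56, adjusted p = 0.0120), a DnaJ protein of the import motor, and *Y22D7AL.10* (-0.37, adjusted p = 0.0464), an Hsp10-type co-chaperonin, were called down. The call of *Y22D7AL.10* ended without any 1 of the 9 arrays (adjusted p = 0.0579 to 0.145), which left 1 chaperone down, and that of *D2030.2* ended without any 1 of the 3 high dose arrays, control replicate 2 or control replicate 3 (adjusted p up to 0.0850), which left 1 up.

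Of 18 measured genes listed as UPRmt signalling and chromatin partners, 3 were called up and 2 down, not far above the 19.97% called over all genes, with a median of 0.11. The bZIP factor *atf-4* (1.19, adjusted p = 0.00162), the STAT-like *sta-2* (1.82, adjusted p = 0.0102) and the Nrf homologue *skn-1* (0.87, adjusted p = 0.0473) were up regulated. The sphingosine kinase *sphk-1* (-0.69, adjusted p = 0.00617) and the SUMO gene *smo-1* (-0.56, adjusted p = 0.0223) were down regulated. *skn-1* was called in 11 of 21 alternative settings. Its call ended without moderation of the variance, which is the test of the methods (adjusted p = 0.0698), and without any 1 of the 3 high dose arrays, low dose replicate 1 or 3, or control replicate 1 or 2 (adjusted p up to 0.122). That of *smo-1* ended without high dose replicate 1 or 3 or any 1 of the 3 control arrays (adjusted p up to 0.0724). Of 7 genes listed as other mitochondrial proteases and peptidases, 1 was called up and 1 down by limma, with a list median of 0.33. The gene called up was the stomatin-like *stl-1* (0.53, adjusted p = 0.0266), which is not itself a protease. *mppa-1*, a subunit of the peptidase that removes import signals, was called down (-0.52, adjusted p = 0.0483). The call of *mppa-1* was kept in 10 of 21 settings and ended without low dose replicate 1 or any 1 of the 6 high dose and control arrays (adjusted p up to 0.146), and that of *stl-1* ended without high dose replicate 2 or 3 or control replicate 1 or 3 (adjusted p up to 0.0857). Each of these losses leaves 0 in its direction.

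The 16 genes listed under protein import into mitochondria, the process on which ATFS-1 sensing depends, lay almost wholly below 0, in 15 of 16 cases. The list includes *immt-1* and *immt-2*, which encode mitofilins and not subunits of the import machinery. None was called up by limma and 9 were called down, against 8.996% up and 10.97% down over all genes, dim ones included. Their median was -0.53. All 16 belong to the brighter 50% of genes. With the dimmer 50% left out, 3839 of 8559 genes were called in either direction. The largest falls were in the outer membrane translocase subunits *tomm-22* (-0.77, adjusted p = 0.0299) and *tomm-20* (-0.70, adjusted p = 0.00897) and in *immt-1*, the worm mitofilin (-0.73, adjusted p = 0.00360). The count called down was 4 without high dose replicate 1, high dose replicate 3, control replicate 1 or control replicate 3, and *tomm-22* was not called without any 1 of the 6 high dose and control arrays (adjusted p up to 0.0905). These falls have the sign of those in *phb-1* and *phb-2* and the opposite sign to *atfs-1*. A link between these changes was not tested.

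Around *dct-1*, 6 of 12 genes listed as mitophagy partners were called up and 1 down at the high dose, with a median of 0.72. Over all genes, dim ones included, 8.996% were called up and 10.97% down. The 6 include *sqst-1*, *lgg-1*, *lgg-2* and *bec-1*, which serve autophagy in general, so the count does not single out mitophagy. Among the 5 not called were *pdr-1* (-0.09, limma adjusted p = 0.720) and *fndc-1* (0.39, adjusted p = 0.131). The largest rises were in *sqst-1*, the p62 autophagy receptor (2.52, adjusted p = 2.65e-05), *allo-1*, an adaptor for the removal of paternal mitochondria (2.32, adjusted p = 6.90e-05), and *bec-1*, the Beclin homologue (2.24, adjusted p = 1.02e-05). The gene called down was *pgam-5*, a mitochondrial phosphatase (-0.37, adjusted p = 0.0335), in 10 of 21 alternative settings. Its call ended, leaving 0 down, without low dose replicate 3 or any 1 of the 6 high dose and control arrays (adjusted p up to 0.107). Of 9 genes of mitochondrial fusion, fission and transport, 2 were called up, the fission genes *fis-2* (1.85, adjusted p = 0.000239) and *mff-1* (0.40, adjusted p = 0.0423), near the 19.97% called over all genes, and the median was 0.37. *mff-1* kept its call in 10 of 20 settings and lost it, leaving 1 up, without low dose replicate 3, any 1 of the 3 high dose arrays or control replicate 2 or 3 (adjusted p up to 0.128). At the low dose *sqst-1* was the only gene called in these 6 lists (0.81, adjusted p = 0.0357), where 1.55% of all genes were called and *dct-1* stood at 0.03. This call was lost without any 1 array except high dose replicate 3 (adjusted p up to 0.143), and the probeset of *sqst-1*, like that of *ubl-5*, is of the x_at type.

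**Figure D4:**
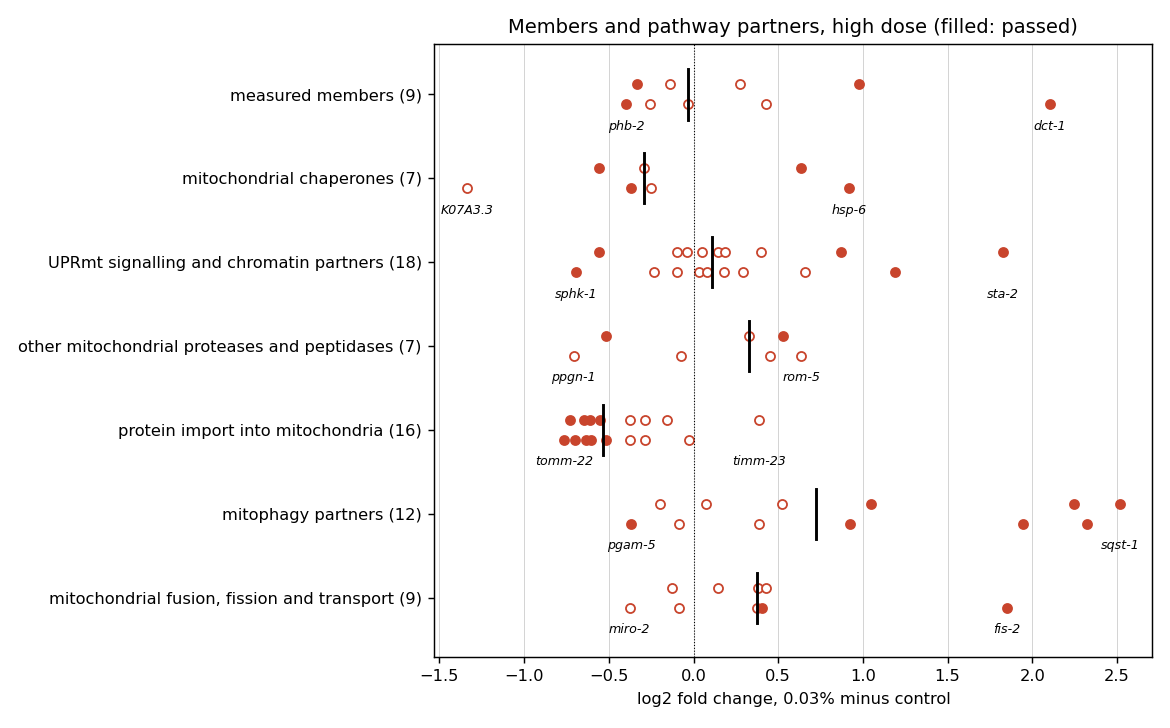
Log2 fold change at the high dose against control (horizontal axis) of the 9 measured genes and of 6 lists of pathway partners, with the number measured in brackets. Each point is a gene, filled if called, vertical bars are list medians, and the lowest and highest gene of each list are named; import genes lie around -0.53 and mitophagy partners around 0.72.

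By Pearson correlation over the 9 arrays, the genes most like *atfs-1* were *F21A3.11* (0.986), *spg-20* (0.979) and *pcm-1* (0.974). For *phb-1* they were *elo-1* (0.988), *pho-11* (0.982) and *gar-2* (0.982), for *phb-2* they were *Y39G8B.7* (0.991), *mtss-1* (0.990) and *npa-1* (0.988), and for *dct-1* they were *gda-1* (0.992), *srlf-3* (0.991) and *R02E4.1* (0.990). The arrays form 3 groups of 3, and any gene that sets the high dose apart from the others will score highly, so these values are a description.

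Several measures of the arrays moved with exposure, some at both doses. The actin 3′ probeset exceeded the 5′ probeset, a measure of RNA integrity and labelling, by 0.85, 0.86 and 1.14 log2 units at the high dose, against 0.52 to 0.63 in controls, and the low dose had 0.49 to 0.62. Tissue markers were summed on each array, 6 genes to a list (5 measured for sperm), and are given as log2 of the summed signal. The brightest genes of a list therefore weigh most in its sum. At the high dose hypodermis markers lay at 16.71 to 16.86, against 17.13 to 17.19 in controls (4 of 6 called down), intestine markers at 16.33 to 16.40, against 16.68 to 16.73 in controls (2 called down), and body wall muscle markers at 16.93 to 17.09, against 17.12 to 17.29 in controls (1 called down). These 3 sums overlapped the controls at the low dose. The other 4 lists stood apart from the controls at both doses. Germ line markers lay at 14.24 to 14.45 in controls, 14.05 to 14.19 at the low dose and 13.69 to 13.82 at the high dose, with 3 of 6 called down at the high dose and none by limma at the low dose (2 with an unadjusted p below 0.05). Adult oocyte and yolk markers lay at 14.58 to 14.84 in controls, 13.75 to 13.89 at the low dose and 13.95 to 14.21 at the high dose, lowest at the low dose, with 3 of 6 called down at the low dose, 4 at the high dose, and 3 called higher at the high than at the low dose. Sperm markers lay at 16.67 to 16.78 in controls, 16.38 to 16.53 at the low dose and 16.39 to 16.52 at the high dose, with none called by limma. An unadjusted p below 0.05 was found for 3 of 5 sperm markers at the low dose, and for 2 of 5 at the high. Neuron markers lay at 14.38 to 14.47 in controls, 14.52 to 14.74 at the low dose and 14.71 to 14.90 at the high dose, with 1 of 6 called up at the high dose. The median log2 difference of the high from the low dose was -0.07 over the neuron markers and -0.08 over the germ line markers. The sums of these 2 lists thus moved otherwise than their median genes between the doses. Apart from 1 neuron marker, no marker was among the dimmest 25% of genes. In whole-worm RNA fewer cells of a type, less RNA per cell and a difference in developmental stage between the groups cannot be told apart. The part of these measures in the changes of *dct-1*, *atfs-1*, *phb-1* and *phb-2* was not tested. Within the low dose, replicate 2 had the highest array median of all (8.52) and the highest low dose level of *dve-1*, *ubl-5*, *clpp-1*, *lonp-1* and *phb-1*.

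**Figure D5:**
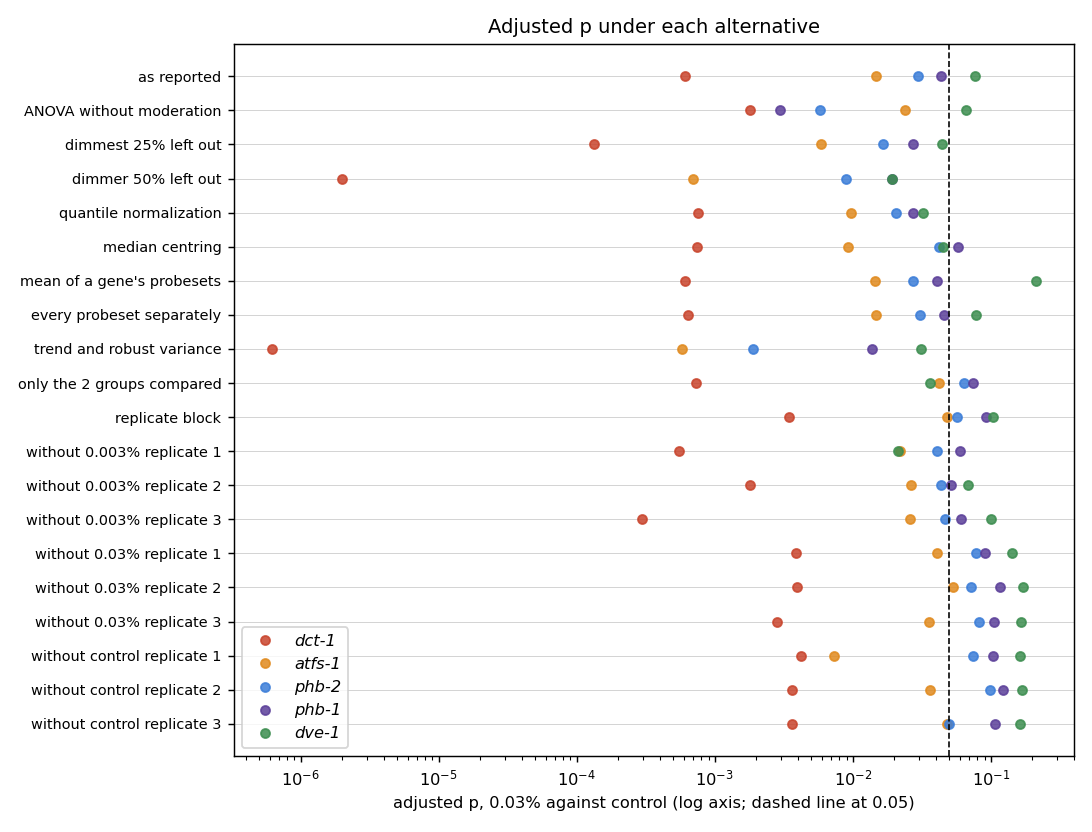
Adjusted p of *dct-1*, *atfs-1*, *phb-2*, *phb-1* and *dve-1* at the high dose against control (horizontal log axis) as reported and under each alternative setting that changes the fit (vertical axis), with a dashed line at 0.05. *dct-1* stays at or below 0.00422, and *phb-1* and *phb-2* cross the line when single arrays are left out. *atfs-1* crosses it without high dose replicate 2 (0.0528), and *dve-1*, above the line as reported, falls below it in 7 settings.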

How the data were processed

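RNA of whole worms was measured in 9 samples, each on an Affymetrix array of its own. The authors deposited log2 signals, 1 per probeset and array. RMA in Partek is given as the summarization in the methods, but MAS5 and Partek 6.4 in the submitters' processing notes, and this was not resolved. Of the deposited log2 values 41 lay below 0, and the lower quartile of an array ran from 6.35 to 6.55. The values may therefore not be those behind the fold changes in the paper. No further scaling was applied. The array medians were 8.42 to 8.52, and arrays of a group correlated at 0.940 to 0.952 across genes. The number of arrays limits the precision.

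Among 22625 probesets, no test included the 77 controls, the 895 that lack a gene or the 887 that match more than 1 gene. Gene names were taken from the platform annotation and updated through the RefSeq gene table of WBcel235, used for names and overlaps alone. The probeset with the highest mean stood for a gene. Fits used limma 3.58.1 in R 4.3.3 (lmFit, eBayes), with 3 groups in 1 model, and were tested on simulated data. The comparisons with control share the control arrays. Figures used matplotlib 3.10.9.

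The genes and lists were chosen with earlier results of these data known. Named from each pathway list were *hsp-6*, *hsp-60* and the 3 called genes with the largest rise and the 3 with the largest fall at the high dose. Alternatives were no moderation (the methods' ANOVA), no fold threshold or 1.5 fold, leaving out the dimmest 25% or dimmer 50% of genes, quantile normalization and median centring. Others were averaging a gene's probesets, testing each probeset by itself, a variance trend with robust estimation, only the groups compared, a replicate block and each array left out.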

Additional observations from a re-analysis of the deposited data

How the results depend on the processing

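Over 21 alternative settings of the 9 genes in 3 comparisons, 504 of 567 values kept their direction and side of the threshold, 40 lost a call, 8 gained one and 15 changed sign. None of the 15 concerned a called difference. At the high dose against control 4 genes were called, 2 with a 1.5 fold threshold and 1 to 4 with 1 array left out. Between the doses 3 were called, and 1 to 3 with 1 array left out. At the low dose 0 of the 9 genes were called by limma in each setting (1 gene had an unadjusted p below 0.05), although the count over all genes, 266, ran from 139 to 545. *dct-1* was called at the high dose in 21 of 21 settings (adjusted p = 6.21e-07 to 0.00422), *atfs-1* in 20 (5.81e-04 to 0.0528), *phb-2* in 13 (0.00188 to 0.0982) and *phb-1* in 8 (0.00295 to 0.121). The fit of only the groups compared ended the calls of *phb-2* (adjusted p = 0.0641) and *phb-1* (0.0743), and median centring ended that of *phb-1* (0.0580). The cause was not tested.

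Same-numbered arrays did not deviate together (correlations of deviations from the group means -0.03 to 0.03). The labels do not say whether same-numbered samples were handled together, and these values cannot settle it. With the replicate block 2 genes were called at the high dose against control and 1 between the doses.

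Low dose differences near 0 changed sign. *phb-2* stood at -0.041 after quantile normalization and *dve-1* at -0.20 with the mean of its probesets. With 1 array left out, the low dose difference ranged from -0.059 to 0.33 for *atfs-1*, -0.047 to 0.20 for *dve-1*, -0.085 to 0.15 for *clpp-1*, -0.095 to 0.15 for *lonp-1*, -0.028 to 0.076 for *phb-2* and -0.18 to 0.27 for *dct-1*. The high dose difference of *spg-7* ranged from -0.19 to 0.10. Import genes called down numbered 4 to 10 and mitophagy partners called up 5 to 7 over the settings, and *sqst-1* kept its low dose call in 11 of 21.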
